A study of Mus musculus with 4 samples.

Results

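The genes described here make, break down, export and sense sphingosine 1-phosphate (S1P), in mouse macrophages cultured with the lectin galectin-1. They are the sphingosine kinases Sphk1 and Sphk2, the S1P lyase Sgpl1, the S1P phosphatases Sgpp1 and Sgpp2, the ceramidases Asah1 and Acer3, the exporter Spns2 and the receptors S1pr1 and S1pr2. They were selected by gene symbol from the deposited FPKM values, with the levels and the galectin-1 differences of these same libraries already known. All 10 symbols were found among the 23284 in the files, and 8 reached the mean of 1 FPKM that was required for the fit across all genes. Because of that choice, the galectin-1 differences of the 10 genes are given as a description and support nothing further.

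Bulk RNA sequencing was carried out on macrophages that had been grown from the bone marrow of wild-type mice, a primary culture model. The galectin-1 group had received lipopolysaccharide (LPS), a bacterial cell wall component, at 1 µg/ml for 1 h and was then cultured with recombinant mouse galectin-1, a lectin that binds galactose-bearing glycans, over 24 h. The vehicle group had received the same LPS and was then kept with phosphate-buffered saline for 24 h. Each group had 2 libraries, every culture carried LPS, and the sources used here do not give the galectin-1 dose. The labels do not say whether the libraries of a group came from separate cultures or animals, so replicate spread may be technical. FPKM divides the fragments of a gene by the length of its transcript and by library size, so levels may be compared between genes. Library totals were 557661 and 555507 FPKM in galectin-1 libraries, against 553191 and 541138 FPKM in vehicle libraries. The depth in reads is unknown.

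S1P is a signalling lipid at the end of sphingolipid breakdown. Ceramidases release sphingosine from ceramide, and sphingosine kinases phosphorylate it to S1P. The lyase then cleaves S1P irreversibly, while S1P phosphatases return it to sphingosine. S1P that leaves the cell acts on G protein-coupled receptors, which govern the traffic of immune cells and the integrity of vessels. In macrophages the pathway is known for its links to Toll-like receptor signalling, migration and the handling of dying cells.

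Promoter sequences are shown for Sphk1, the gene with the largest difference of the 10, for its relative Sphk2, for Sgpl1, the most abundant transcript, and for S1pr2, whose level was nearly equal in the groups. Each runs from 250 bases before to 50 bases after an annotated RefSeq start on GRCm38.p6, 5′ to 3′ on the strand of the gene. Capitals mark letter matches, on both strands, to the cAMP response element TGACGTCA, the AP-1 element TGANTCA and the GC box GGGCGG. The Sphk1 window, 1 of 5 annotated for that gene, lies at chr11:116531587-116531886 on the plus strand. The Sphk2 window, 1 of 2 for that gene, lies at chr7:45717953-45718252, that of Sgpl1 at chr10:61147635-61147934 and that of S1pr2 at chr9:20976744-20977043, all on the minus strand.
Sphk1: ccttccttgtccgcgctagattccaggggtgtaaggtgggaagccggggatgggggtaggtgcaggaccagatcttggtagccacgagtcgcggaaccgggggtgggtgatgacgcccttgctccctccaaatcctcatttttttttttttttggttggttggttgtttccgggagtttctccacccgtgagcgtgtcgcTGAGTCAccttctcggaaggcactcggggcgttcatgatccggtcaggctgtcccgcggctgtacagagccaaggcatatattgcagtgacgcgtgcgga
Sphk2: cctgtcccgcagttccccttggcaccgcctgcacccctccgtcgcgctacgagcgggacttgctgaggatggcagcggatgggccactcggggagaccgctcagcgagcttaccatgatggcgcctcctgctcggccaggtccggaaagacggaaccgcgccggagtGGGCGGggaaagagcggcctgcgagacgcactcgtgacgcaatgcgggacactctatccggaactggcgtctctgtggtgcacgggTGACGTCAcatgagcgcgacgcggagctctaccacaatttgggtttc
Sgpl1: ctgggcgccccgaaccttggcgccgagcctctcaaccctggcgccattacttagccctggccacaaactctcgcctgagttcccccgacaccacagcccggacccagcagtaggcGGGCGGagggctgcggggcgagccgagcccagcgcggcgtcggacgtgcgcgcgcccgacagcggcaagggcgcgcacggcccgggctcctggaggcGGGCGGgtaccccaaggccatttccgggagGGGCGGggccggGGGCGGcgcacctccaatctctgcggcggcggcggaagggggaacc
S1pr2: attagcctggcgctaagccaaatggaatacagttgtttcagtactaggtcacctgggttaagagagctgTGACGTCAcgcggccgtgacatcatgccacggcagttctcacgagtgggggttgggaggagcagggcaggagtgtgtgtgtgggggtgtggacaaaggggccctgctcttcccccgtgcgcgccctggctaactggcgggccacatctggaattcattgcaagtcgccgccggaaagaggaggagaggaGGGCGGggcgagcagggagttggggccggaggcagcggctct

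The Sphk1 window held an AP-1 match that began at position -50, counted with the first transcribed base as 1, and no match to the other motifs. An overlapping Sphk1 window, placed on another annotated start, held the same letters at position -124. The remaining 3 Sphk1 windows held none of the 3 motifs. The Sphk2 window shown had a GC box at position -83 and a cAMP response element at position 4. The other Sphk2 window held 3 GC boxes, at positions -152, -92 and -4, and no cAMP response element. In Sgpl1 there were 4 GC boxes, at positions -135, -38, -8 and 5. The S1pr2 window had a cAMP response element at position -181 and a GC box at position 9. Among 32851 RefSeq windows of the same length, 7.81% held the AP-1 letters, 1.79% the cAMP response element and 35.7% the GC box. G and C made up 58.0% of the Sphk1 window shown, 66.0% for Sphk2, 75.3% for Sgpl1 and 62.0% for S1pr2. The median over all windows was 52.7%. Windows were found for 8 of the 10 genes, and the marked matches did not overlap each other. FPKM values per gene do not tell which start was used, and a match is a description of the letters alone.

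Transcript levels of the 10 genes spanned a wide range. Sgpl1 was the most abundant, with a mean of 154 FPKM over the 4 libraries, followed by Asah1 with 119 FPKM. S1pr2 averaged 28.2 FPKM, Acer3 16.2 FPKM, Sphk2 12.8 FPKM, Sphk1 9.94 FPKM, Sgpp1 6.79 FPKM and S1pr1 2.95 FPKM. Of the 9380 tested genes, 6.37% had a higher mean than Sgpl1 and 79.7% a higher mean than S1pr1. Neighbours in this order did not overlap in either group, down to S1pr1. Sgpp2 and Spns2 lay close to 0 and overlapped each other in the vehicle libraries.

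**Figure D1:**
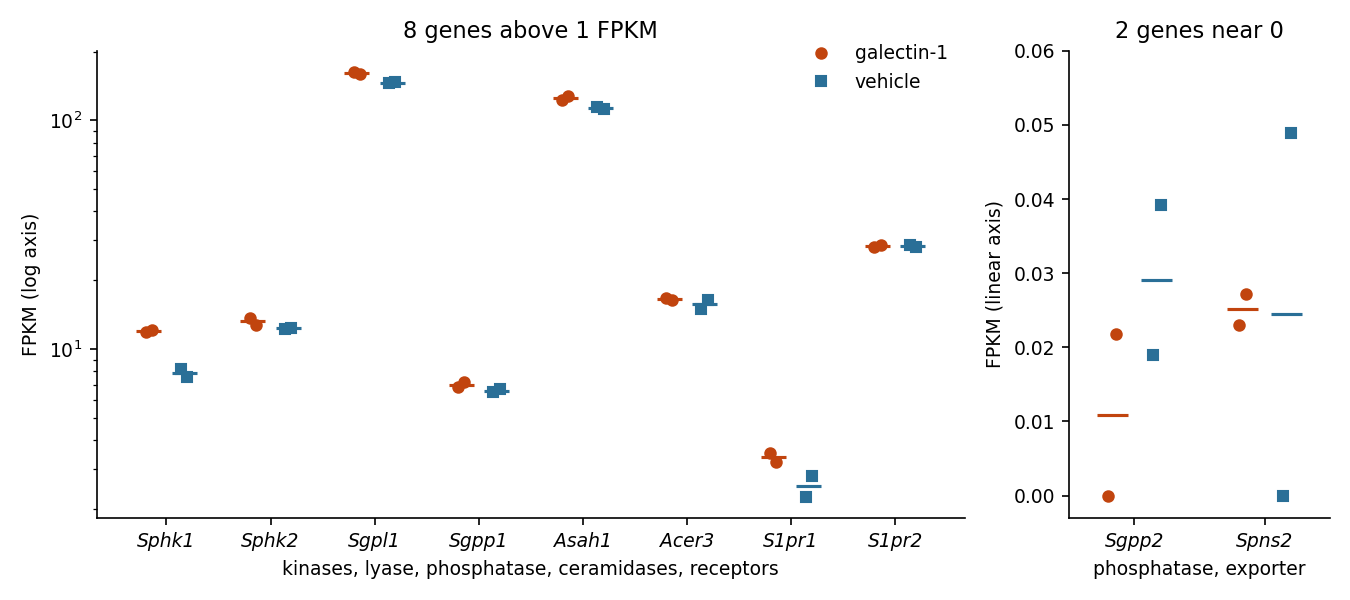
FPKM of the 10 S1P genes in each library, on a log axis for 8 genes and on a linear axis for Sgpp2 and Spns2. Circles are galectin-1 libraries, squares vehicle libraries and bars the mean of 2; Sphk1 shows the widest gap on the log axis, with 11.9 and 12.1 FPKM in galectin-1 libraries and 8.22 and 7.53 FPKM in vehicle libraries.

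Of the kinase genes, Sphk1 showed the larger difference from vehicle; whether it exceeded that of Sphk2 was not tested. Sphk1, which encodes a largely cytosolic kinase that is recruited to the plasma membrane, had 11.9 and 12.1 FPKM in galectin-1 libraries, against 8.22 and 7.53 FPKM in vehicle libraries. Both galectin-1 values lay above both vehicle values. The means were 12.01 ± 0.1001 FPKM with galectin-1 and 7.88 ± 0.488 FPKM with vehicle (SD, n = 2 each), a ratio of 1.52. On the log2(FPKM + 1) scale the difference was 0.55 with a standard error of 0.07, the 39th highest of 9380 tested genes. The gene, ENSMUSG00000061878.15, spans chr11:116530925-116536674 on the plus strand of GRCm38. It overlaps the antisense gene Gm29292, which was not analysed here, by 2153 bases.

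Sphk2, whose kinase is found in the nucleus and at internal membranes, had 13.6 and 12.8 FPKM in galectin-1 libraries, against 12.3 and 12.4 FPKM in vehicle libraries. Its groups did not overlap, but the log2 difference was 0.09 with a standard error of 0.06. It was 0.05 when galectin-1 replicate 1 was left out and 0.13 when galectin-1 replicate 2 was. On chromosome 7 the Sphk2 gene overlaps Rpl18, a ribosomal protein gene on the opposite strand, by 2546 bases, and Dbp, also on the opposite strand, by 737 bases. Rpl18 had 464 ± 3.21 FPKM with galectin-1 and 434 ± 12.4 FPKM with vehicle (SD, n = 2 each), a log2 difference of 0.09. Dbp was low, with 0.522 and 0.224 FPKM in galectin-1 libraries, against 0.685 and 0.606 FPKM in vehicle libraries. The sources used here do not say whether reads were counted by strand, and the part of Rpl18 and Dbp reads in the Sphk2 values was not tested.

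The ratio of Sphk1 to Sphk2 FPKM was 0.876 and 0.943 in galectin-1 libraries, against 0.668 and 0.607 in vehicle libraries. Sphk2 was the more abundant kinase transcript per length in each library, and by a smaller margin with galectin-1. Both kinases together had 25.6 and 24.9 FPKM in galectin-1 libraries, against 20.5 and 19.9 FPKM in vehicle libraries.

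Among the genes for the removal of S1P, the lyase transcript was the most abundant. Sgpl1, the only enzyme of the group that takes S1P out of the sphingolipid pool, had 163 and 159 FPKM in galectin-1 libraries, against 146 and 147 FPKM in vehicle libraries. Both galectin-1 libraries lay above both vehicle libraries, and the log2 difference was 0.14 with a standard error of 0.03. Sgpp1, an S1P phosphatase of the endoplasmic reticulum, had 6.81 and 7.20 FPKM in galectin-1 libraries, against 6.48 and 6.69 FPKM in vehicle libraries. Its log2 difference of 0.08 was close to its standard error of 0.07, and was 0.04 when galectin-1 replicate 2 was left out and 0.11 when galectin-1 replicate 1 was.

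Sgpp2, the second S1P phosphatase, was listed at 0 and 0.0218 FPKM in galectin-1 libraries, against 0.0190 and 0.0391 FPKM in vehicle libraries. These values were too low to be tested or compared. The level of Sgpl1 was 23.9 and 22.1 times that of Sgpp1 in galectin-1 libraries, against 22.4 and 22.0 times in vehicle libraries, and these ranges overlapped. The level of Sgpl1 was 6.37 and 6.39 times that of both kinases together in galectin-1 libraries, against 7.09 and 7.37 times in vehicle libraries. The lyase transcript exceeded the kinase transcripts in all 4 libraries, by a smaller factor with galectin-1.

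**Figure D2:**
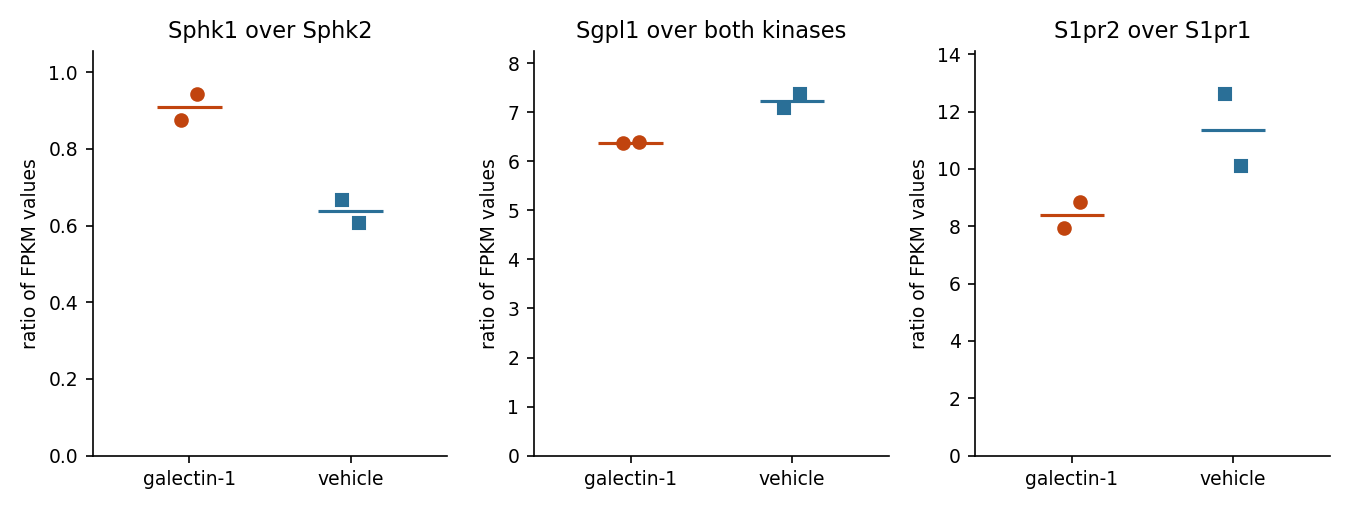
Ratios of FPKM values within each library, on axes that start at 0; circles are galectin-1 libraries, squares vehicle libraries and bars the mean of 2. Sphk1 over Sphk2 was 0.876 and 0.943 with galectin-1 and 0.668 and 0.607 with vehicle, while Sgpl1 over both kinases and S1pr2 over S1pr1 were lower with galectin-1.

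Of the ceramidases, which supply the sphingosine, the lysosomal acid ceramidase was by far the more abundant. Asah1 had 123 and 128 FPKM in galectin-1 libraries, against 115 and 112 FPKM in vehicle libraries. The groups did not overlap, and the log2 difference was 0.14 with a standard error of 0.04. Acer3, an alkaline ceramidase of the endoplasmic reticulum and Golgi, had 16.8 and 16.5 FPKM in galectin-1 libraries, against 15.0 and 16.4 FPKM in vehicle libraries. The gap between the lower galectin-1 library and the higher vehicle library was small, and the log2 difference of 0.08 had a standard error of 0.06. The Acer3 difference was 0.02 when vehicle replicate 1 was left out and 0.14 when vehicle replicate 2 was. The ratio of Asah1 to Acer3 was 7.31 and 7.78 in galectin-1 libraries, against 7.64 and 6.84 in vehicle libraries, with overlap between the groups.

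The receptor transcripts were mostly S1pr2. S1pr2, whose receptor couples to G12/13 proteins among others and restrains migration in several cell types, had 27.9 and 28.4 FPKM in galectin-1 libraries, against 28.6 and 28.1 FPKM in vehicle libraries. The groups overlapped, and the log2 difference was -0.01 with a standard error of 0.04. S1pr1, whose receptor couples to Gi proteins and drives lymphocyte exit from lymphoid organs, had 3.51 and 3.22 FPKM in galectin-1 libraries, against 2.27 and 2.79 FPKM in vehicle libraries. Both galectin-1 libraries lay above both vehicle libraries, with means of 3.36 ± 0.211 and 2.53 ± 0.367 FPKM (SD, n = 2 each). The S1pr1 log2 difference was 0.31 with a standard error of 0.11. Leaving out vehicle replicate 1 gave 0.20, and leaving out vehicle replicate 2 gave 0.42.

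S1pr3, S1pr4 and S1pr5 lay below 1 FPKM in all libraries. S1pr3 was listed at 0.229 and 0.0771 FPKM in galectin-1 libraries, against 0.168 and 0.121 FPKM in vehicle libraries. S1pr5 was listed at 0 in both galectin-1 libraries and in vehicle replicate 2, and at 0.0314 FPKM in vehicle replicate 1. Of the FPKM summed over the 5 receptor genes, S1pr2 held 88.1% and 89.5% in galectin-1 libraries, against 92.0% and 90.5% in vehicle libraries. The ratio of S1pr2 to S1pr1 FPKM was 7.93 and 8.83 in galectin-1 libraries, against 12.6 and 10.1 in vehicle libraries. S1pr1 held 11.1% and 10.1% in galectin-1 libraries, against 7.29% and 8.98% in vehicle libraries.

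Of the S1P exporters, Spns2, which is known from endothelial cells, was listed at 0.0230 and 0.0272 FPKM in galectin-1 libraries, against 0 and 0.0489 FPKM in vehicle libraries. The groups overlapped and the level was too low to be tested. Mfsd2b, the exporter of red blood cells and platelets, was also near 0, at 0.0718 and 0 FPKM in galectin-1 libraries, against 0.0246 and 0.0509 FPKM in vehicle libraries.

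**Figure D3:**
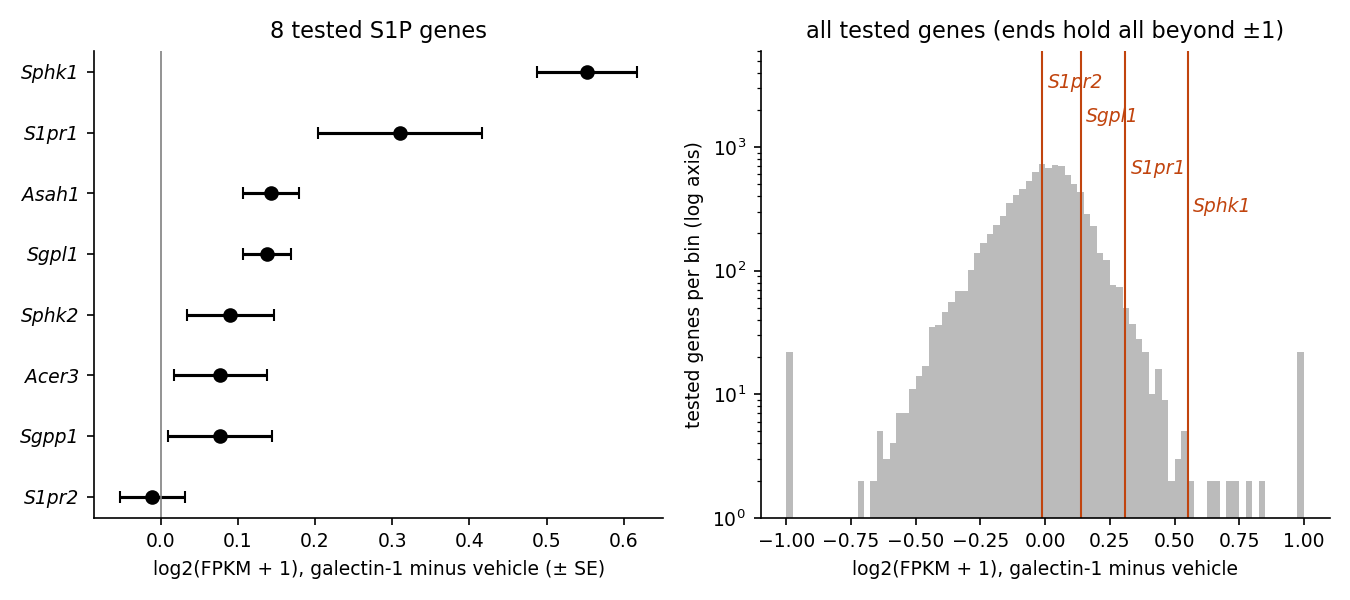
Left, log2(FPKM + 1) difference, galectin-1 minus vehicle, of the 8 tested S1P genes, with error bars of 1 standard error. Right, the same differences of the 9380 tested genes on a log count axis, with all values beyond 1 in size placed in the end bins and 4 of the S1P genes marked; Sphk1 at 0.55 lies in the sparse upper tail and S1pr2 at -0.01 at the centre.

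Sphk1 was the 1 gene among the 8 tested that passed an adjusted p of 0.05 in limma, in the direction of higher levels with galectin-1. Of all 9380 tested genes, 1.19% passed, 0.608% as higher and 0.586% as lower. Since the 8 genes were chosen with these results known, nothing is read from that count. Nor is anything read from the Sphk1 call, here or under other settings. The Sphk1 call was lost without vehicle replicate 1, where the difference was 0.61, and without vehicle replicate 2, where it was 0.50. It was also lost without galectin-1 replicate 1 (0.56) and without galectin-1 replicate 2 (0.54), with no filter on low values and in limma without the variance trend. Both galectin-1 libraries lay above both vehicle libraries for 7 of the 8 genes and below them for 0 of the 8, beside 29.1% and 26.2% of all tested genes. The median log2 difference of the 8 was 0.11, beside 0.00 over all tested genes.

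Most macrophage markers were abundant in all libraries, and their sum, which is mostly Lyz2, was higher with galectin-1. All 8 listed markers were above 1 FPKM, and Lyz2, the macrophage lysozyme, averaged 6246 FPKM with galectin-1 and 5701 FPKM with vehicle. Their summed level was 10136 and 10120.3 FPKM in galectin-1 libraries, against 9346 and 9342 FPKM in vehicle libraries. The median log2 difference of the 8 markers was 0.11, with 7 of 8 positive, beside 4754 of all 9380 tested genes, and none past the threshold in limma. An unadjusted p under 0.05 was found for 5 of the 7 positive markers and for Mertk, a receptor for the uptake of dying cells, beside 2172 of the 9380. Mertk lay in the other direction, with 17.0 and 16.7 FPKM in galectin-1 libraries, against 19.8 and 18.3 FPKM in vehicle libraries (log2 difference -0.17, limma adjusted p = 0.167). In bulk libraries a share of cells and the amount of RNA per cell cannot be told apart, and the part of this shift in the differences of Sgpl1, Asah1 and the other S1P genes was not tested.

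Markers of cells that are known for strong S1P receptor or exporter expression were low, except for the endothelial marker Kdr. The 6 lymphocyte markers summed to 0.213 and 0.273 FPKM in galectin-1 libraries, against 0.167 and 0.0401 FPKM in vehicle libraries, and Cd3e and Cd3g were at 0 throughout. The 6 endothelial markers summed to 14.1 and 14.9 FPKM in galectin-1 libraries, against 14.9 and 14.8 FPKM in vehicle libraries. Most of that sum was Kdr, with 12.6 FPKM on average with galectin-1 and 13.1 FPKM with vehicle, while Tek and Tie1 stayed below 0.1 FPKM.

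Markers of dendritic cells and of fibroblasts summed to far less than those of macrophages. With galectin-1, the tested dendritic cell markers were all lower and the tested fibroblast markers all higher. The 5 dendritic cell markers summed to 16.6 and 17.3 FPKM in galectin-1 libraries, against 22.2 and 22.1 FPKM in vehicle libraries, a sum that is mostly Fscn1 and Ccl22. All 3 tested differences were negative, beside 4626 of all 9380 tested genes, though Ccr7 overlapped between the groups. Ccl22 had 7.23 and 7.46 FPKM in galectin-1 libraries, against 8.97 and 9.12 FPKM in vehicle libraries (log2 difference -0.27, limma adjusted p = 0.0911). Of the 3, 1, Fscn1, which encodes an actin-bundling protein, passed as lower (log2 difference -0.47, limma adjusted p = 0.0425), beside 0.586% of all tested genes. The Fscn1 call was lost when any 1 library was left out (difference -0.50 to -0.44), with no filter and without the variance trend. Zbtb46, a transcription factor gene of classical dendritic cells, lay the other way at a low level, with 0.296 and 0.320 FPKM in galectin-1 libraries, against 0.249 and 0.0822 FPKM in vehicle libraries. Flt3 averaged 0.0340 FPKM with galectin-1 and 0.0104 FPKM with vehicle, and its groups overlapped. The 5 fibroblast markers summed to 11.1 and 9.53 FPKM in galectin-1 libraries, against 8.37 and 8.81 FPKM in vehicle libraries. All 3 tested were positive, beside 4754 of all 9380 tested genes, with a median log2 difference of 0.23, and none passed. Col1a1 had 1.73 and 1.63 FPKM with galectin-1, against 1.42 and 1.16 FPKM with vehicle. Dcn had 4.66 and 3.38 FPKM with galectin-1, against 3.09 and 3.05 FPKM with vehicle. Pdgfra, at a low level, also lay higher without overlap, while Col3a1 and Col1a2 overlapped between the groups. The 5 neutrophil markers found summed to 2.31 and 1.38 FPKM in galectin-1 libraries, against 2.92 and 1.34 FPKM in vehicle libraries. The part of these cells in the S1P gene values was not tested.

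Around the 10 genes, 65 further sphingolipid and S1P signalling genes were listed, of which 64 were found and 46 tested. In limma 0 passed as higher and 0 as lower, while 14 had an unadjusted p under 0.05, as had 2172 of all 9380 tested genes. Differences were positive for 28 and negative for 18, beside 4754 and 4626 of all tested genes, with a median of 0.04. With 2 libraries a group, the lack of calls does not show that levels were equal.

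Of the other S1P genes, 5 of 12 were tested. Asah2, the neutral ceramidase, had 7.89 and 7.85 FPKM in galectin-1 libraries, against 8.34 and 9.77 FPKM in vehicle libraries (log2 difference -0.18, limma adjusted p = 0.274). Plpp2, named Ppap2c in the files and encoding a lipid phosphate phosphatase, was the most abundant of them, with 12.4 and 13.1 FPKM in galectin-1 libraries, against 12.1 and 11.9 FPKM in vehicle libraries (0.07, adjusted p = 0.471). Aldh3a2, whose product oxidizes the aldehyde that the lyase releases, had a difference of 0.03 with overlapping groups (adjusted p = 0.822).

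Among 11 tested genes of ceramide synthesis, the subunits of serine palmitoyltransferase, the first enzyme of the route, had differences of opposite sign. Sptlc1 had 14.2 and 14.5 FPKM in galectin-1 libraries, against 16.4 and 17.3 FPKM in vehicle libraries (log2 difference -0.21, limma adjusted p = 0.104). Sptlc2 had 71.2 and 70.7 FPKM in galectin-1 libraries, against 62.3 and 65.8 FPKM in vehicle libraries (0.15, adjusted p = 0.118). Neither passed, though the groups did not overlap for either gene. The ceramide synthase gene Cers6, named Lass6 in the files, had a difference of 0.13 (adjusted p = 0.107). Degs1, the desaturase that completes ceramide, was the most abundant of the list, with a mean of 138 FPKM with galectin-1 and 127 FPKM with vehicle.

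The 8 tested genes of sphingomyelin turnover had a median difference of -0.05. The sphingomyelin synthase genes had differences of opposite sign, Sgms2 of 0.30 (limma adjusted p = 0.108) and Sgms1 of -0.14 (adjusted p = 0.186). Smpdl3b, encoding a membrane-bound relative of acid sphingomyelinase, had a difference of -0.27 (adjusted p = 0.220). Smpdl3a was the most abundant, with a mean of 117 FPKM with galectin-1 and 120.4 FPKM with vehicle.

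Glycosphingolipid genes had the most tested genes of these lists, 14, of which 11 were positive, beside 4754 of all 9380 tested genes. Gla, the lysosomal alpha-galactosidase, had 73.4 and 73.1 FPKM in galectin-1 libraries, against 63.7 and 61.7 FPKM in vehicle libraries (log2 difference 0.22, limma adjusted p = 0.0555). B4galt6, a lactosylceramide synthase, had 22.5 and 21.5 FPKM in galectin-1 libraries, against 25.9 and 26.7 FPKM in vehicle libraries (-0.25, adjusted p = 0.0690). The other lactosylceramide synthase gene of the list, B4galt5, was more abundant and had a difference of opposite sign. It had 127 and 124 FPKM in galectin-1 libraries, against 114 and 119 FPKM in vehicle libraries (0.11, adjusted p = 0.157). Ugcg, which makes glucosylceramide, had a difference of 0.19 (adjusted p = 0.138). Psap, the precursor of the saposins that assist lysosomal glycolipid breakdown, was the most abundant, with a mean of 4054 FPKM with galectin-1 and 3933 FPKM with vehicle.

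Of the genes that couple or control S1P receptors, 8 of 10 were tested. Gna13, a G protein through which S1pr2 acts, had 97.9 and 97.4 FPKM in galectin-1 libraries, against 87.0 and 88.4 FPKM in vehicle libraries (log2 difference 0.15, limma adjusted p = 0.0820). Its relative Gna12 had a difference of 0.18 (adjusted p = 0.139). Cd69, whose product removes S1pr1 protein from the lymphocyte surface, had 992 and 963 FPKM in galectin-1 libraries, against 936 FPKM in each vehicle library (0.06, adjusted p = 0.247). It was the most abundant gene of this list and lay far above S1pr1 itself.

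**Figure D4:**
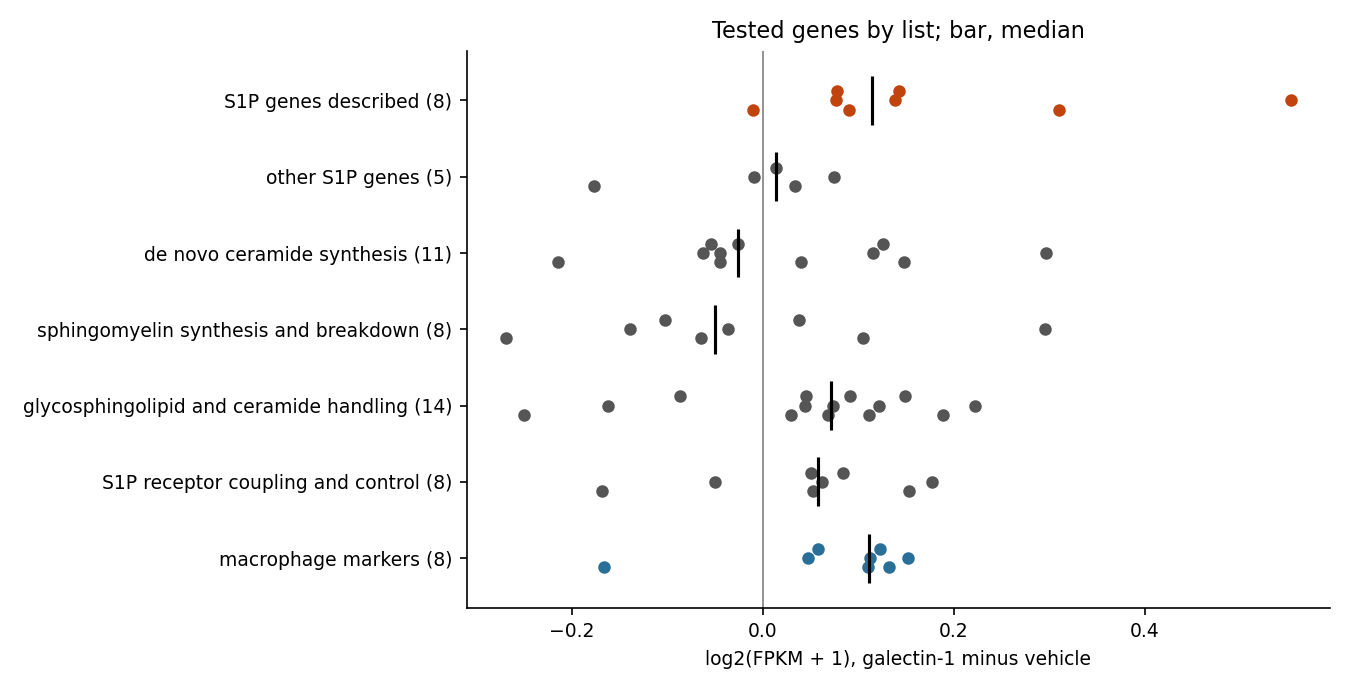
Difference on the log2(FPKM + 1) scale, galectin-1 minus vehicle, for each tested gene of the S1P genes described, of 5 further sphingolipid lists and of the macrophage markers, with the number tested in brackets; points are offset vertically for sight and bars are medians. The S1P genes described had a median of 0.11, as did the macrophage markers, and Sphk1 and S1pr1 lay farthest to the right of all genes shown.

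The genes whose profile over the 4 libraries lay nearest to that of Sphk1 were Heca, Slc22a4 and Cebpd. Likeness was measured as the root mean square difference of log2(FPKM + 1) values, each gene centred on its own mean, among 8726 genes. The distances were 0.0539 for Heca, 0.0550 for Slc22a4 and 0.0570 for Cebpd, a transcription factor gene of the inflammatory response. Slc22a4 was low, with 1.43 and 1.49 FPKM in galectin-1 libraries, against 0.911 and 0.651 FPKM in vehicle libraries. At such levels the added 1 narrows the log2 difference. For Sgpl1 the nearest were Sf3b4 at 0.00383, Ufsp2 at 0.00492 and Ncoa3 at 0.00590. With 4 libraries such distances mostly record the same gap between the groups.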

How the data were processed

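The authors deposited FPKM values, 1 per gene symbol and library. Cufflinks 2.2.1, TopHat2 2.0.13, Bowtie2 2.2.3 and SAMtools 0.1.19 and, as genome, mm10 are named in the submitters' processing notes, which give no roles; poly(A) libraries were made with a stranded kit, per the labels' protocols. The sources used here do not give the annotation, the strand setting or any scaling between libraries. Groups and replicate numbers came from the sample titles.

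Values were taken as log2(FPKM + 1). The 9380 genes whose mean over all 4 libraries reached 1 FPKM entered a limma fit (version 3.58.1, R 4.3.3) with a variance trend. Calls were 2-sided, at a Benjamini-Hochberg adjusted p below 0.05 over all tested genes. The fit had 2 residual and 3.89 prior degrees of freedom, and its code was tested on simulated data. A permutation of 2 against 2 libraries cannot give a 2-sided p below 0.333. The pseudocount, filter, scaling, trend, replicate block and each library were varied in 12 alternatives.

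The genes and lists were chosen with earlier results of these data known. Of 101 listed symbols, 99 were found, 15 of them under another symbol through a RefSeq table for GRCm38.p6, which also supplied promoters. Gene coordinates are from GENCODE M21 on GRCm38, the assembly of mm10. All 10 genes are named; of each wider list, the 3 of smallest p and the most abundant gene were eligible, and the other genes named there were chosen after their values were seen.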

Additional observations from a re-analysis of the deposited data

How the results depend on the processing

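Over all genes, 57 passed as higher and 55 as lower. With no filter 1 and 2 passed, in limma without the trend 1 and 1, and with a minimum mean of 5 FPKM 127 and 99. Quantile normalization gave 24 higher, in place of 57, and 47 lower. With the replicate number as a block 123 passed as higher and 117 as lower. Deviations of equally numbered libraries had a correlation of 0.0114 across genes. The labels do not say whether equally numbered libraries share a culture or animal, and that correlation cannot settle it. Leaving out 1 library at a time gave 4 to 9 higher and 3 to 12 lower genes. Of the 112 genes that passed in all, 3 to 6 were among those. The cause of these changes was not tested.

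Of the wider sphingolipid genes, 0 passed as higher, and 1, Gla, did so with the replicate block or the 5 FPKM minimum; without any 1 library 0 passed in either direction. Sphk1 passed in 6 of 12 alternatives, the block among them, and its difference ran from 0.50 to 0.61. The other 7 tested genes passed in none of theirs. With quantile normalization the differences of Sgpl1 and Asah1 were each 0.11, in place of 0.14. That of S1pr1 was 0.35, in place of 0.31. Only S1pr2 changed sign, in 2 of 12, at 0.00 after rounding, when either vehicle replicate 1 or galectin-1 replicate 1 was left out. S1pr1 lay under the 5 FPKM minimum and has 11 alternatives. Read depth is unknown, so Sgpp2 and Spns2 cannot be given limits of detection.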
